A study of Mus musculus with 13 samples.

Results

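The smooth muscle contractile genes measured here were *Myh11*, *Acta2*, *Tagln*, *Cnn1*, *Smtn*, *Myocd*, *Lmod1*, *Mylk*, *Synpo2* and *Actg2*. These 10 genes, of 36109 genes listed, were taken by name as a measure of smooth muscle RNA, and all 10 passed the filter on low counts in both tissues. RNA-sequencing covered 13 mouse libraries: RNA flushed from the aortic lumen of 3 *Hmox2*+/+ (EC WT) and 3 *Hmox2*-/- (EC KO) mice, and RNA from whole hearts of 4 *Hmox2*+/+ (heart WT) and 3 *Hmox2*-/- (heart KO) mice. *Hmox2*, which encodes heme oxygenase 2, was deleted throughout the body of the knockout mice, which served as a model of sleep apnea in room air. The controls were wild-type littermates. No further allele or treatment was given for either genotype, and the mice used for RNA were described by the study as young, while their sex was not given in the sources used here. The aortic cells were not sorted: the reagent that was flushed through the vessel lysed what it reached, and RNA was then taken with a different kit from that used for the hearts. The libraries were numbered within each group, and the labels did not tie an aortic library to the heart of the same mouse. The series' design text speaks of aortic and heart samples as matched, so hearts and aortas may share mice, but with no such link the libraries of both tissues were fitted as independent.

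Smooth muscle cells form the middle layer of the aortic wall, just beneath the endothelium, and contract when a rise in calcium activates myosin light chain kinase. Their identity rests on a set of contractile genes that is switched on by serum response factor (SRF) together with its cofactor myocardin, through a short DNA element called the CArG box. Several of these genes, among them those for smooth muscle actin and smooth muscle myosin, are the usual markers of a contractile smooth muscle cell, and smooth muscle cells that dedifferentiate turn them down. In the heart, smooth muscle lines the coronary vessels, while cardiomyocytes also use some of the same genes.

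The 250 bases before the RefSeq start are given for the 2 members whose promoters held near matches to this element. Promoter windows from 250 bases before to 50 bases after the start were held for 6 of the 10 members (*Acta2*, *Cnn1*, *Smtn*, *Lmod1*, *Mylk* and *Synpo2*), in the RefSeq table for GRCm38.p6, and each was searched on both strands for the CArG box. No member window held an exact CArG box, against 1.63% of all 32851 promoter windows. With at most 1 mismatch allowed, 2 of the 6 member windows held a match, against 21.1% of all windows, and both held 2 matches, which 3.7% of all windows did. The *Acta2* matches began 84 and 34 bases before the start, and the *Lmod1* matches began 189 and 164 bases before it. The windows of *Cnn1*, *Smtn*, *Mylk* and *Synpo2* held no match. The capitals mark these matches; a match in letters is not evidence of binding.
Acta2 promoter, chr19:34255374-34255623, minus strand, GRCm38.p6: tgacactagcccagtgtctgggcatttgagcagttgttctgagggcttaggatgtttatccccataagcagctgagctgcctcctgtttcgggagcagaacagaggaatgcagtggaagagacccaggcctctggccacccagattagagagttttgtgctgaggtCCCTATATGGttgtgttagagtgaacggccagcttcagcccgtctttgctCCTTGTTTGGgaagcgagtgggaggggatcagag
Lmod1 promoter, chr1:135324563-135324812, plus strand, GRCm38.p6: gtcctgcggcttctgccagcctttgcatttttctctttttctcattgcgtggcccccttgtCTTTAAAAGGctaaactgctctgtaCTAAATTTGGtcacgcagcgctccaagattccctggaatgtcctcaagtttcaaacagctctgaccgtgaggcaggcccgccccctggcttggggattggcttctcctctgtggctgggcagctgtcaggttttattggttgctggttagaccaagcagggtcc

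The members lie on 7 chromosomes (coordinates on GRCm39). *Myh11* (chr16:14012399-14109236, minus strand) and *Mylk* (chr16:34565580-34822790, plus strand) share chromosome 16 with the deleted gene *Hmox2* (chr16:4544216-4589816) and lie 9.42 and 29.98 Mb from it. *Tagln* (chr9:45840909-45847404, minus strand) and *Cnn1* (chr9:22010512-22020926, plus strand) share chromosome 9, and *Smtn* (chr11:3467520-3490612, minus strand) and *Myocd* (chr11:65067387-65160828, minus strand) share chromosome 11. *Acta2* is at chr19:34217737-34232990, *Synpo2* at chr3:122870168-123029798 and *Actg2* at chr6:83489887-83513551, all 3 on the minus strand, and *Lmod1* is at chr1:135252509-135295907 on the plus strand. Reads of 3 members could in part be shared with a neighbouring gene on the opposite strand. Of the 31-base words in the transcripts of *Cnn1*, 34.1% also occurred in transcripts of *Elof1*, which stood at 60.5 to 92.0 TPM in EC WT and 61.9 to 77.8 TPM in EC KO. The shares were 9.29% for *Acta2* with *Stambpl1* and 4.56% for *Tagln* with *Pcsk7*. In the other 7 members at most 1.01% of words occurred in any other gene.

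Depth was even except in 1 library: 12 libraries held 26067147 to 31619776 estimated counts, and heart WT 1 held 7268626. *Hmox2* was lower in every knockout library than in any wild-type library of its tissue: its level was 57.7 ± 5.597 TPM (mean ± SD, n = 3; TPM is a transcript level scaled by length and library) in EC WT, 24.99 ± 6.60 (n = 3) in EC KO, 29.4 ± 3.85 (n = 4) in heart WT and 17.2 ± 1.26 (n = 3) in heart KO, with 73.4% of its 31-base words shared with other genes. Mitochondrially encoded genes took 19.4 to 30.9% of counts in the aortic libraries, 37.6 to 44.3% in heart WT and 22.5 to 27.2% in heart KO. Heart TPM values were therefore on different footings in the 2 genotypes, and the heart genotypes are compared in CPM, counts scaled to TMM library sizes and not to length. EdgeR, which tests counts, put *Hmox2* at -2.34 in EC KO and -2.30 in heart KO (log2, KO minus WT). These were 5.07-fold and 4.92-fold drops, larger than the TPM means show. The Y-linked gene *Ddx3y* was at 1.03 CPM in EC KO 2 and 0.92 CPM in EC KO 3, and between 61.7 and 86.4 CPM in the other 4 aortic libraries. The aortic calls of the members and of the other gene lists, and the contrast between tissues, are given below also without EC KO 2 or EC KO 3. Likeness between genes is given over all 6 aortic libraries. The runs on the lists were added after seeing the data.

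Smooth muscle genes were abundant in the aortic endothelial RNA. The 10 genes together made up 3139.5, 2050.9 and 3292.7 TPM in EC WT 1, 2 and 3. In *Acta2*, smooth muscle alpha-actin, the EC WT mean was 1394.3 ± 355.6 TPM, and *Tagln*, which encodes the actin-binding protein transgelin, followed with 865.3 ± 189.2 TPM. *Pecam1*, which encodes an endothelial adhesion molecule, reached 560.1 ± 193.2 TPM in the same libraries. *Cnn1* (193.2 ± 48.2 TPM) and *Myh11* (153.5 ± 43.7 TPM) came next, then *Smtn* (67.9 ± 16.2 TPM) and *Actg2* (54.2 ± 9.96 TPM), then *Mylk* (35.5 ± 9.62 TPM), *Synpo2* (29.7 ± 8.62 TPM) and *Lmod1* (29.7 ± 8.20 TPM). *Myocd*, the regulator, was lowest at 4.43 ± 2.76 TPM (all SD, n = 3). Neighbours in this order whose ranges over the 3 libraries overlapped were *Acta2* and *Tagln*, *Cnn1* and *Myh11*, *Smtn* and *Actg2*, *Actg2* and *Mylk*, and *Mylk*, *Synpo2* and *Lmod1*. *Acta2* and *Tagln* alone supplied 79.7 to 84.1% of the summed level in every aortic library.

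The sums fell into 2 levels in the knockout. They were 2331.0, 614.3 and 671.6 TPM in EC KO 1, 2 and 3, so that EC KO 1 lay between the wild-type libraries while EC KO 2 and EC KO 3 lay far below all of them. As a share of the EC WT mean of each gene, the median member stood at 70.1% in EC KO 1, 18.0% in EC KO 2 and 22.0% in EC KO 3. EC WT 2, the lowest wild-type library, also had a median of 70.1%. In EC KO 2 and EC KO 3 all 10 members were below the wild-type range, and in EC KO 1 5 were below it and 5 within it. Of all genes tested, 17.7% had every EC KO library below that range. The share for each library alone was not counted.

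**Figure D1:**
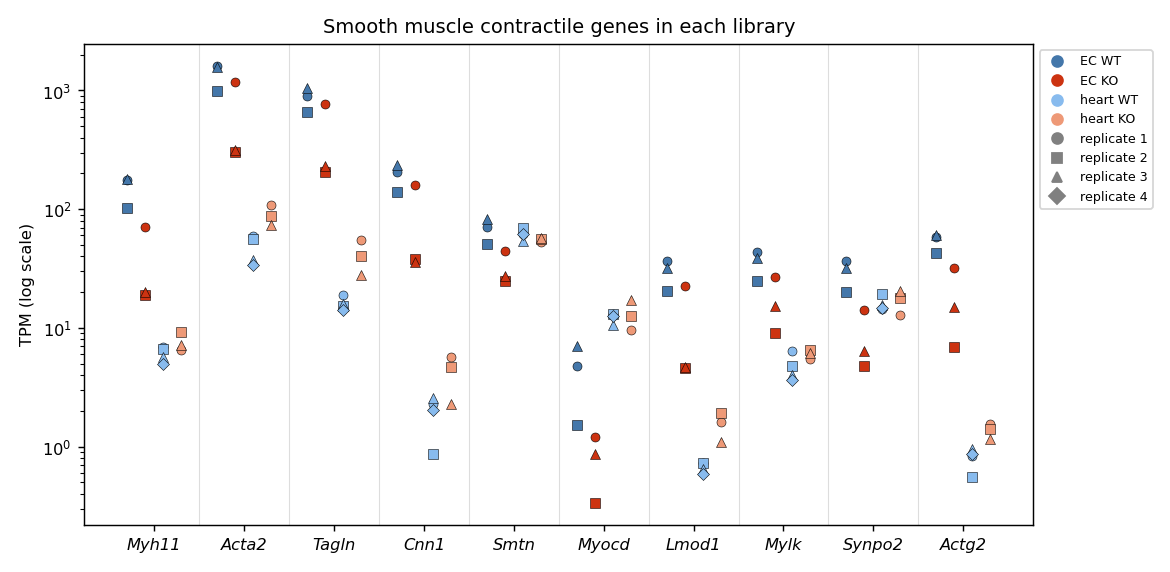
Level of each gene in each library, in TPM on a log axis; colours give the group and marker shapes the replicate number. EC KO 2 and EC KO 3 (red square and triangle) sit below every EC WT library for all 10 genes, while EC KO 1 (red circle) sits within the EC WT range for *Acta2*, *Tagln*, *Cnn1*, *Lmod1* and *Mylk*.

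The comparison of EC KO with EC WT asked whether loss of *Hmox2* went with a change in these genes in the aortic RNA. All 10 genes had lower estimates in EC KO, and 5 fell by edgeR's quasi-likelihood test (adjusted p of at most 0.05): *Myh11*, *Smtn*, *Myocd*, *Synpo2* and *Actg2*, each by more than 1 on the log2 scale. Of all 15301 genes tested, 8.06% were called lower, and 3.89% were called lower with a change of at least 1. The median log2 fold change of the members was -1.52, beside -0.02 over all genes tested. At an unadjusted p under 0.05, 9 members were lower, beside 17.2% of all genes. In bulk RNA, fewer smooth muscle cells and less of each transcript per cell cannot be told apart.

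*Myocd*, the SRF cofactor that switches the contractile set on, was at 4.81, 1.51 and 6.98 TPM in EC WT 1, 2 and 3 and at 1.19, 0.33 and 0.86 TPM in EC KO 1, 2 and 3. All knockout values were below all wild-type values, but EC WT 2 was closer to EC KO 1 than to the other wild-type libraries. The log2 fold change was -2.16 (SE 0.44, adjusted p = 0.0185). Its level was low, with 43 to 567 estimated counts a library.

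The actins split by the test, although both went the same way. *Acta2* was at 1612.6, 984.0 and 1586.2 TPM in EC WT and at 1189.8, 302.0 and 313.4 TPM in EC KO. EC KO 1 was above EC WT 2, so the groups overlapped, and the log2 fold change of -1.19 (SE 0.53) did not pass (adjusted p = 0.154). *Actg2*, the gamma-actin of enteric and other smooth muscle, was at 58.7, 42.8 and 61.1 TPM in EC WT and at 31.7, 6.83 and 15.1 TPM in EC KO. Its groups did not overlap, and it fell by 1.65 on the log2 scale (SE 0.45, adjusted p = 0.0441).

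For the motor, *Myh11*, the smooth muscle myosin heavy chain, was at 177.6, 103.1 and 179.8 TPM in EC WT and at 71.1, 18.8 and 19.96 TPM in EC KO. Even the highest knockout library, EC KO 1, lay below the lowest wild-type library, and the log2 fold change was -2.12 (SE 0.54, adjusted p = 0.0347). *Mylk*, the myosin light chain kinase that starts contraction, was at 43.2, 24.7 and 38.6 TPM in EC WT and at 26.6, 8.999 and 15.2 TPM in EC KO. EC KO 1 exceeded EC WT 2, and the log2 fold change of -1.14 (SE 0.40) did not pass (adjusted p = 0.0851).

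The thin-filament and actin-associated proteins gave both outcomes. *Tagln* was at 892.7, 663.9 and 1039.3 TPM in EC WT and at 770.95, 204.9 and 233.0 TPM in EC KO. *Cnn1*, calponin 1, which binds actin and damps the myosin motor, was at 205.6, 139.9 and 233.9 TPM in EC WT and at 158.9, 38.2 and 35.6 TPM in EC KO. *Lmod1*, leiomodin 1, which nucleates actin filaments, was at 36.3, 20.5 and 32.2 TPM in EC WT and at 22.4, 4.59 and 4.71 TPM in EC KO. In all 3 genes EC KO 1 lay above EC WT 2, and none passed: the log2 fold changes were -1.14 (SE 0.48, adjusted p = 0.135) for *Tagln*, -1.47 (SE 0.51, adjusted p = 0.0830) for *Cnn1* and -1.56 (SE 0.61, adjusted p = 0.111) for *Lmod1*.

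*Smtn*, smoothelin, a cytoskeletal protein of contractile smooth muscle, was at 71.2, 50.4 and 82.3 TPM in EC WT and at 44.3, 24.8 and 27.4 TPM in EC KO. *Synpo2*, synaptopodin 2, an actin-bundling protein of muscle, was at 36.8, 20.1 and 32.2 TPM in EC WT and at 14.2, 4.80 and 6.37 TPM in EC KO. In neither gene did the groups overlap. *Smtn* fell by 1.15 on the log2 scale (SE 0.27, adjusted p = 0.0300) and *Synpo2* by 1.87 (SE 0.40, adjusted p = 0.0219).

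The 5 genes that passed were the 5 whose TPM in EC KO 1 lay below every wild-type library. In CPM, the scale of the test, *Cnn1* in EC KO 1 (184.8 CPM) also lay below every wild-type library (lowest 190.4 CPM) and did not pass. Groups that did not overlap in TPM, with EC KO lower, were found in 17.7% of all genes tested. The number that passed depended on single libraries, and the share of all genes called moved as well. Without EC KO 1 all 10 members were called lower, beside 4.50% of all genes. Without EC KO 2 none was, beside 2.64% of all genes, and without EC KO 3 none was, beside 1.68%; 5 members had an unadjusted p under 0.05 in each case, and both counts are by edgeR alone. Without EC WT 1 only *Myocd* passed, beside 3.71% of all genes called lower, and without EC WT 3 *Myocd* and *Synpo2* did, beside 11.0%. EC KO 1 alone was set against EC WT after seeing the data, in a fit that assumes the lone library varies as EC WT does. Of 16389 genes only 26 were called lower and 23 higher in it, so the 0 calls by edgeR among the members (3 at an unadjusted p under 0.05) say little about that library. Its log2 fold changes were -1.21 for *Myh11*, -0.74 for *Smtn*, -1.64 for *Myocd*, -1.18 for *Synpo2* and -0.86 for *Actg2*. A fit with the *Ddx3y* status of the library as a term was likewise chosen after seeing the data. In it EC KO 1 alone set the knockout side of the genotype estimate. It is therefore no separate check: the median log2 fold change of the members was -0.64, beside -0.63 for EC KO 1 alone. The low smooth muscle values and the near absence of *Ddx3y* fell on the same 2 libraries. DESeq2 called 6 lower, adding *Mylk*, beside 12.7% of all genes. When all 13 libraries shared 1 fit, all 10 were called lower, beside 2395 of 15938 genes.

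**Figure D2:**
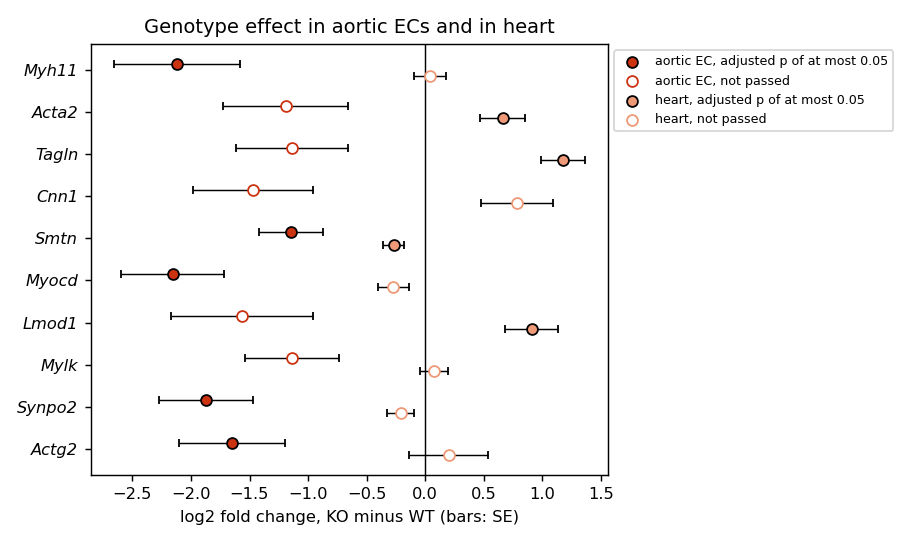
Log2 fold change of each gene, KO minus WT, in aortic EC and heart libraries (bars: SE); filled points passed an adjusted p of at most 0.05. All 10 aortic estimates lie at -1.14 or lower and 5 are filled, and the heart estimates lie between -0.27 and 1.17.

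Set against *Acta2*, *Myh11* was lower in each of the 3 EC KO libraries than in any EC WT library. Relative to *Acta2* in the same library, a measure that cancels the amount of smooth muscle RNA to the extent that the genes move together, *Myh11* was at 11.0, 10.5 and 11.3% in EC WT and at 5.97, 6.24 and 6.37% in EC KO. All 3 knockout libraries, EC KO 1 included, gave about the same ratio, and the groups were far apart compared with their spread: the mean log2 difference was -0.82 (exact permutation test, two-sided p = 0.1, the smallest that 3 against 3 libraries can give). *Lmod1* was at 2.03 to 2.25% of *Acta2* in EC WT and 1.503 to 1.88% in EC KO, again without overlap (log2 difference -0.38, exact permutation p = 0.1). The ratios of *Tagln*, *Cnn1*, *Smtn*, *Myocd*, *Mylk*, *Synpo2* and *Actg2* overlapped between the genotypes. *Tagln* stood at 55.4 to 67.5% of *Acta2* in EC WT and 64.8 to 74.3% in EC KO, and *Cnn1* at 12.8 to 14.7% and 11.4 to 13.4%. These 9 ratios were compared after the levels had been seen. The share of all genes whose ratio to *Acta2* separated the genotypes was not counted.

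**Figure D3:**
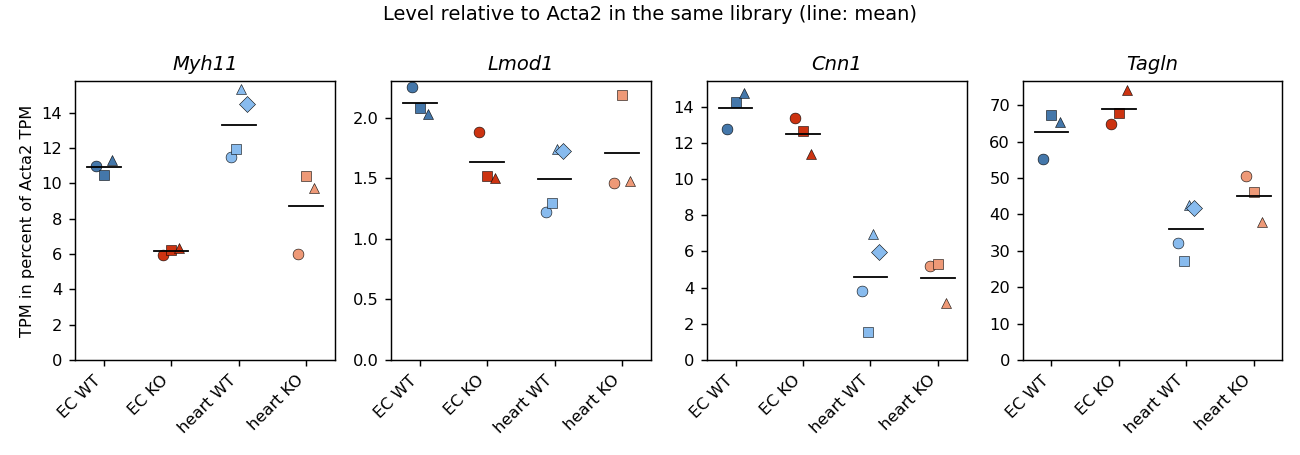
TPM of 4 genes in percent of the TPM of *Acta2* in the same library; points are libraries (marker shape: replicate number) and lines are group means. *Myh11* lies between 10.5 and 11.3% in EC WT and between 5.97 and 6.37% in EC KO, while *Cnn1* and *Tagln* overlap.

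Over the 6 aortic libraries the log2 CPM of any 2 members rose and fell together: Pearson's r of the 45 pairs ran from 0.853 to 0.998, with a median of 0.963. These values describe 6 libraries that share the difference between EC KO 2, EC KO 3 and the rest. Among 9316 other genes with a mean of at least 10 CPM in these libraries, the members ranked high by likeness to *Myh11*, with *Synpo2* 7th (r = 0.994), *Cnn1* 22nd (r = 0.988), *Lmod1* 33rd, *Smtn* 36th, *Tagln* 57th, *Acta2* 63rd, *Mylk* 93rd and *Actg2* 94th. *Myocd* was under the level limit. The 8 genes outside the list that were most like *Myh11* were *Xirp1* (r = 0.998), *Ctdsp1*, *Myl9*, *Hspa1a*, *Tpm1*, *Ppp1r14a*, *Tpm2* and *Itih4* (r = 0.993). *Myl9* encodes the regulatory light chain of smooth muscle myosin, *Tpm1* and *Tpm2* encode tropomyosins, and *Ppp1r14a* encodes an inhibitor of myosin phosphatase. *Ctdsp1* differed less in level (58.3 TPM in EC WT and 45.8 TPM in EC KO) in spite of its rank.

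In whole heart the set was far less abundant and did not move as 1 group. The 10 genes summed to 146.9 to 186.2 TPM in heart WT and 213.7 to 260.3 TPM in heart KO. The ratio of the medians, KO over WT, was 1.43 in TPM and 1.13 in CPM, and turned to 0.916 with TPM rescaled without mitochondrially encoded genes. Of the members, 3 were higher in heart KO by edgeR (*Tagln*, *Lmod1* and *Acta2*) and 1 was lower (*Smtn*). The background was 17.2% of 13816 genes called higher and 16.2% called lower. The median log2 fold change of the members was 0.14, beside -0.01 over all genes.

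*Tagln* was at 19.8, 18.7, 24.1 and 21.5 CPM in heart WT 1 to 4 and at 61.0, 50.3 and 31.5 CPM in heart KO 1 to 3. Every knockout heart lay above every wild-type heart, and *Tagln* rose by 1.17 on the log2 scale (SE 0.19, adjusted p = 0.00151). *Lmod1* was at 2.97, 2.67, 2.93 and 2.51 CPM in heart WT and at 5.61, 6.50 and 3.35 CPM in heart KO, also without overlap, and rose by 0.91 (SE 0.23, adjusted p = 0.0112), from only 20 to 215 estimated counts a library. *Acta2* was at 110.8, 93.9, 70.1 and 68.5 CPM in heart WT and at 171.0, 131.7 and 102.5 CPM in heart KO. Heart KO 3 lay below heart WT 1, yet the change of 0.66 passed (SE 0.19, adjusted p = 0.0224). *Smtn* was at 98.9, 104.2, 98.0 and 107.2 CPM in heart WT and at 86.05, 88.8 and 79.6 CPM in heart KO, and fell by 0.27 (SE 0.09, adjusted p = 0.0371) without overlap. In CPM, 20.6% of all genes had heart KO above heart WT without overlap and 19.8% had it below.

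The other 6 members did not pass in heart. *Cnn1* was at 1.28 to 3.39 CPM in heart WT and 2.81 to 4.88 CPM in heart KO (log2 fold change 0.79, SE 0.31, adjusted p = 0.0690). *Myocd* was at 48.5 to 58.1 CPM and 37.3 to 52.5 CPM (-0.27, adjusted p = 0.129), and *Synpo2* at 122.9 to 137.3 CPM and 91.6 to 123.0 CPM (-0.21, adjusted p = 0.172). *Myh11* was at 34.9 to 45.95 CPM and 36.5 to 51.3 CPM (0.04, adjusted p = 0.851), and *Mylk* at 16.7 to 22.5 CPM and 19.98 to 22.1 CPM (0.08, adjusted p = 0.645). *Actg2*, at 0.62 to 1.33 CPM and 0.81 to 1.45 CPM, rested on 7 to 48 estimated counts a library (0.20, adjusted p = 0.673). *Tagln* passed in each of the 7 fits that left out 1 heart library. *Acta2* passed in 3 of them and not without heart WT 3, heart WT 4, heart KO 1 or heart KO 2 (adjusted p between 0.0594 and 0.0660 by edgeR), and *Lmod1* passed except without heart KO 2 (adjusted p = 0.0601). *Smtn* no longer passed without heart WT 1, 2, 3 or 4, without heart KO 2 or without heart KO 3, and kept an estimate below 0 in each case. Without heart KO 3, *Myocd* passed as lower and *Cnn1* as higher. *Cnn1* also passed as higher without heart WT 3, with DESeq2 and without the filter on low counts.

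The ratio of *Myh11* to *Acta2* was lower in the knockout in heart as well. It was 11.5, 11.9, 15.3 and 14.5% in heart WT and 5.98, 10.4 and 9.74% in heart KO, with a log2 difference of -0.64 (exact permutation test, two-sided p = 0.0571, the smallest that this test can give for 3 against 4). In heart the numerator was steady and *Acta2* was higher, whereas in the aortic RNA both were lower and *Myh11* by more. *Smtn* and *Mylk* relative to *Acta2* were also lower in heart KO without overlap, over the same denominator that was higher in heart KO. The share of all genes whose ratio to *Acta2* separated in this way was not counted. Pairs of members did not track each other over the 7 hearts as they did in the aortic libraries: r ran from -0.872 (*Tagln* and *Myocd*) to 0.942 (*Tagln* and *Lmod1*), with a median of 0.163.

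The genotype effect differed between the tissues. The contrast of the aortic effect minus the heart effect, fitted over all 13 libraries, was below 0 and passed for all 10 members, where 16.2% of 15938 genes were called lower. It was largest for *Lmod1* (-2.51, SE 0.69, adjusted p = 0.0161), *Tagln* (-2.35, SE 0.53, adjusted p = 0.00536) and *Cnn1* (-2.30, SE 0.64, adjusted p = 0.0167), and smallest for *Smtn* (-0.92, SE 0.28, adjusted p = 0.0270). Without EC WT 1 the number that passed was 6, beside 13.7% of all genes called lower, and without EC KO 3 it was 6, beside 11.8%. Without EC KO 2 the number was 7, beside 13.1%. With counts scaled by transcript length it was also 7, without *Cnn1*, *Mylk* and *Smtn*, beside 13.4%. With upper-quartile in place of TMM factors it was 9, without *Mylk*, beside 13.3%. With *Ddx3y* status as a term, chosen after seeing the data, the knockout side of the aortic effect rested on EC KO 1 alone. All 10 estimates stayed below 0 in that fit, which is no separate check.

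Between tissues, the members fell on both sides. In *Hmox2*+/+ mice 7 members were lower in heart than in the aortic RNA, where 33.7% of genes were called lower, and 1 was higher, where 32.1% were. *Cnn1* had the largest log2 difference (heart minus EC, -6.05), followed by *Actg2* (-5.11), *Tagln* (-5.01), *Lmod1* (-4.56), *Acta2* (-3.99), *Myh11* (-3.76) and *Mylk* (-2.40), with adjusted p between 5.8e-08 and 4.7e-06. *Myocd* was higher in heart by 2.86 (adjusted p = 1.1e-06), at 12.4 ± 1.21 TPM (SD, n = 4) beside 4.43 ± 2.76 TPM in EC WT. *Smtn* (61.8 ± 6.33 TPM in heart WT) and *Synpo2* (15.96 ± 2.16 TPM) did not pass, with log2 differences of -0.09 and 0.49. With counts scaled by transcript length *Smtn* turned to 0.85 (adjusted p = 0.00145). In *Hmox2*-/- mice the same 7 were lower in heart (background 36.7%), and *Myocd* (4.78), *Synpo2* (2.19) and *Smtn* (0.83) were higher (background 33.7%). Isolation and kit differed with the tissue, so tissue and isolation cannot be told apart.

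The transcripts behind *Smtn* and *Synpo2* differed between the tissues. In heart WT 51.2% of *Smtn* TPM was assigned to Smtn-201, a coding transcript of 1747 bases, and in heart KO 73.6%; in the aortic libraries it took 0.24 to 0.95%. The aortic signal came from the long transcripts Smtn-203 (3117 bases) and Smtn-202 (3335 bases). Smtn-203 stood at 38.1, 28.3 and 40.6 TPM in EC WT and at 19.9, 4.83 and 5.39 TPM in EC KO, whereas Smtn-202 stood at 26.4, 16.4 and 33.3 TPM in EC WT and at 18.0, 16.9 and 15.3 TPM in EC KO. The drop in the gene total of EC KO 2 and EC KO 3 therefore lay mostly in Smtn-203. Smtn-206, which has no defined coding sequence, took 30.2% of *Smtn* TPM in heart WT and 8.47% in heart KO.

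For *Synpo2*, Synpo2-202 (7063 bases) took 54.3% of the gene's TPM in EC WT and 27.6% in EC KO, and Synpo2-204 (3849 bases) took 11.4% and 44.0%. The ranges of both shares did not overlap between the genotypes (51.8 to 56.9% and 26.0 to 29.5% for Synpo2-202). In level, Synpo2-202 had a mean of 16.3 TPM in EC WT and 2.38 TPM in EC KO. Synpo2-204, whose levels overlapped, had means of 3.11 and 3.84 TPM, so its larger share came with the lower Synpo2-202. How many transcripts of all genes had shares that separated in this way was not counted. Synpo2-207 (9203 bases) took 45.7% in heart WT and 52.7% in heart KO but 4.32% in EC WT. Of the other members, *Myh11* came mainly from Myh11-201 in the aortic libraries (76.7% of its TPM in EC WT and 79.1% in EC KO), while Myh11-204 took 45.3% in heart WT and 0.25% in EC WT. The split between transcripts of a gene is an estimate of the pseudoaligner, and no test was run on it.

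**Figure D4:**
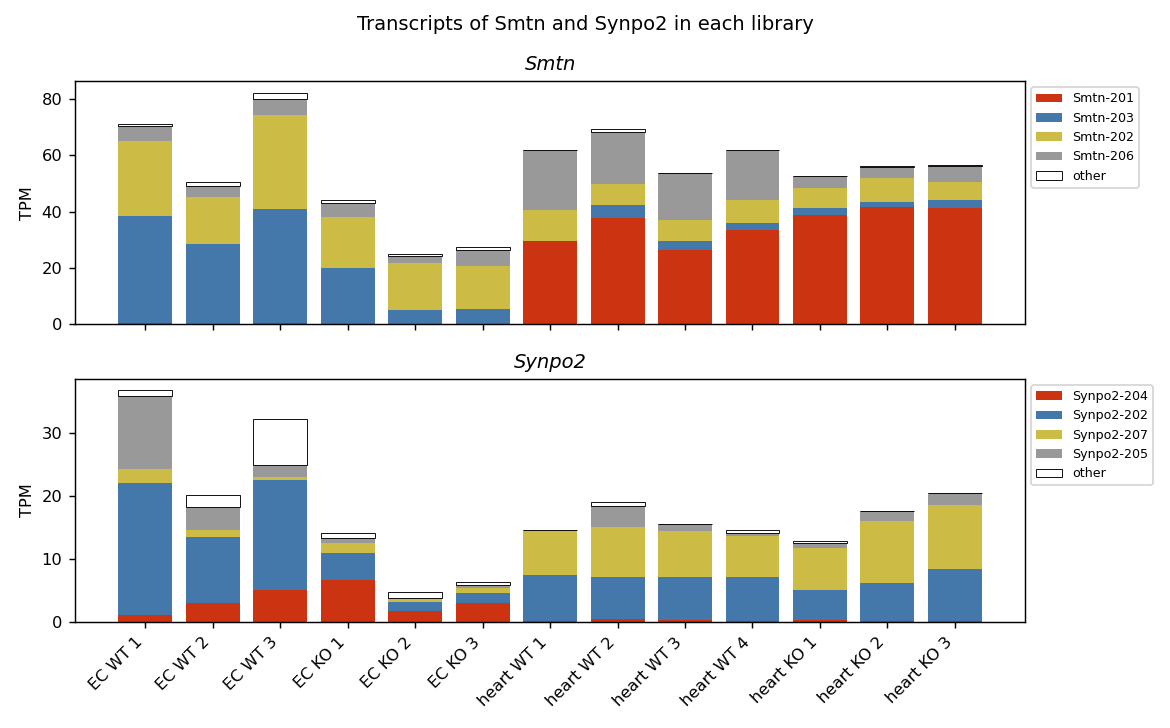
TPM assigned to each named transcript of *Smtn* (top) and *Synpo2* (bottom) in each library, stacked; white is the sum of the other transcripts. Smtn-201 is the largest part of every heart bar and nearly absent from the aortic bars, and Smtn-203 is the part that is small in EC KO 2 and EC KO 3.

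Genes of the pathway around the members were taken from lists. Of 21 other contractile genes, 8 were lower and 1 was higher in EC KO, with a median log2 fold change of -0.79; over all 15301 genes 8.06% were called lower and 1532 genes higher. *Des*, the intermediate filament desmin, fell by 1.42 on the log2 scale (adjusted p = 0.00421). *Myl9* fell by 1.41 (adjusted p = 0.0461), from 921.7 ± 207.9 to 354.6 ± 218.0 TPM (SD, n = 3 each). *Ppp1r12b*, a myosin phosphatase subunit, also fell (-1.34, adjusted p = 0.0308). *Tpm2* (-1.39, adjusted p = 0.0677) and *Myl6* (-0.59, adjusted p = 0.113) did not pass, and *Sncg*, gamma-synuclein, was higher (0.85, adjusted p = 0.0248). Without EC KO 2 and without EC KO 3 the number of this list called lower was 2 in each case, beside 2.64% and 1.68% of all genes. In heart 5 of the 21 were higher and 5 lower, beside 17.2% and 16.2% of all genes.

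Of 20 genes that signal to contraction, 4 were lower in EC KO (median -0.46): *Adra1d*, an alpha-1 adrenergic receptor (-2.46, adjusted p = 0.0271), *Cacna1c*, the pore of the L-type calcium channel (-1.58, adjusted p = 0.0121), *Gucy1a1*, a subunit of the nitric oxide receptor (-1.22, adjusted p = 0.0303), and *Itpr1*, a calcium release channel (-0.56, adjusted p = 0.0316). Over all genes tested 8.06% were called lower. Without EC KO 2 only *Cacna1c* passed as lower, beside 2.64% of all genes. Without EC KO 3 the number was 0 by edgeR, beside 1.68% of all genes, with 5 lower at an unadjusted p under 0.05. In heart 2 of 19 tested were higher and 8 lower, beside 17.2% and 16.2% of all genes. Of 18 regulators of the contractile programme, 3 were lower in EC KO and 1 was higher (median -0.10). *Srf*, the DNA-binding partner of myocardin, fell by 1.01 (adjusted p = 0.0177), from 19.5 ± 0.74 to 9.95 ± 3.58 TPM, and *Notch3*, the Notch receptor of mural cells, fell by 1.83 (adjusted p = 0.00183), from 2.77 ± 0.35 to 0.80 ± 0.24 TPM. *Foxo4* fell by 0.60 (adjusted p = 0.0494) and *Hey2*, a Notch target, was higher (0.84, adjusted p = 0.0269). Without EC KO 2 and without EC KO 3 *Notch3* was the 1 regulator called lower (adjusted p = 0.00539 and 0.0143). In heart 3 of the 18 were higher and 3 lower, beside 17.2% and 16.2% of all genes, with *Srf* at 0.06 (adjusted p = 0.651).

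Of 14 genes linked to synthetic, dedifferentiated smooth muscle, 2 were higher (*Mgp*, matrix Gla protein, 1.34, adjusted p = 0.0152, and *Spp1*, osteopontin, 1.73, adjusted p = 0.0279) and 1 was lower (*Tnc*, tenascin C, -1.25, adjusted p = 0.0255) in EC KO, with a median log2 fold change of 0.13. Fibroblasts also express many of them. Over all genes tested, 1532 of 15301 were called higher and 8.06% lower. Without EC KO 2 and without EC KO 3 0 of the 14 passed by edgeR, with 5 and 3 at an unadjusted p under 0.05. In these fits 633 of 15838 and 375 of 15645 genes were called higher, and 2.64% and 1.68% lower. Of 10 pericyte genes 1 was lower, close to the 8.06% of all genes, *Cspg4* (-1.67, adjusted p = 0.00384), and *Rgs5* (-1.04) did not pass (adjusted p = 0.0570). *Cspg4* also passed as lower without EC KO 2 and without EC KO 3 (adjusted p = 0.0153 and 0.0183 by edgeR). In heart 7 of 13 synthetic genes tested were higher and 0 lower by edgeR, beside 17.2% and 16.2% of all genes. At an unadjusted p under 0.05, 1 was lower.

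Markers of other cells also differed between the aortic libraries, though not all in the same libraries as the smooth muscle genes. The 11 cardiomyocyte markers summed to 117.2, 710.7 and 264.7 TPM in EC WT and to 8.72, 10.8 and 11.9 TPM in EC KO, and 10 of them were lower (8 without EC KO 2 and 6 without EC KO 3). *Myl2*, the ventricular light chain, stood at 125.8 ± 132.0 TPM in EC WT and 0.35 ± 0.36 TPM in EC KO. The 10 skeletal muscle markers summed to 72.7, 46.8 and 140.6 TPM and to 4.92, 6.89 and 2.96 TPM, with 8 of 9 tested lower. Without EC KO 2 and without EC KO 3, 5 of 10 tested were lower in each case. Of all genes, 8.06% were called lower with every library kept, 2.64% without EC KO 2 and 1.68% without EC KO 3. These striated muscle sums were low in all 3 knockout libraries, EC KO 1 included, and EC WT 2, which was lowest of its group in every smooth muscle gene, was highest in cardiomyocyte markers. The endothelial list of 12 summed to 1021.3, 1329.5 and 1960.3 TPM in EC WT and to 2156.0, 2137.4 and 2347.7 TPM in EC KO. Of it, 5 genes were higher and 1 lower, beside 1532 of all 15301 genes higher and 8.06% lower. Without EC KO 2, 1 was higher, beside 633 of 15838 genes, and without EC KO 3, 1 was higher, beside 375 of 15645. The smooth muscle sum was 3.07, 1.54 and 1.68 times the endothelial sum in EC WT and 1.08, 0.29 and 0.29 times in EC KO.

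The 10 adipocyte markers were the most abundant list, with 14062, 19287 and 13136 TPM in EC WT and 14417, 11280 and 13538 TPM in EC KO, and 2 of them were lower. The 10 fibroblast markers ran from 2205.9 to 4013.8 TPM in EC WT and from 3856.7 to 5511.1 TPM in EC KO (3 higher, 1 lower), and the 10 macrophage markers from 302.7 to 564.1 TPM and from 586.1 to 1128.0 TPM (5 higher, 0 lower by edgeR and at an unadjusted p under 0.05). As background for these lists, 1532 of all 15301 genes were called higher in EC KO and 8.06% were called lower. On leaving out EC KO 2, 1 adipocyte marker was lower, 3 macrophage markers were higher and 0 fibroblast markers passed by edgeR. On leaving out EC KO 3 these numbers were 1, 2 and 0. At an unadjusted p under 0.05, 4 fibroblast markers were higher and 1 was lower in each case. Beside this, 633 of 15838 and 375 of 15645 genes were called higher, and 2.64% and 1.68% lower. The part of these other cells in the smooth muscle result was not tested.

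**Figure D5:**
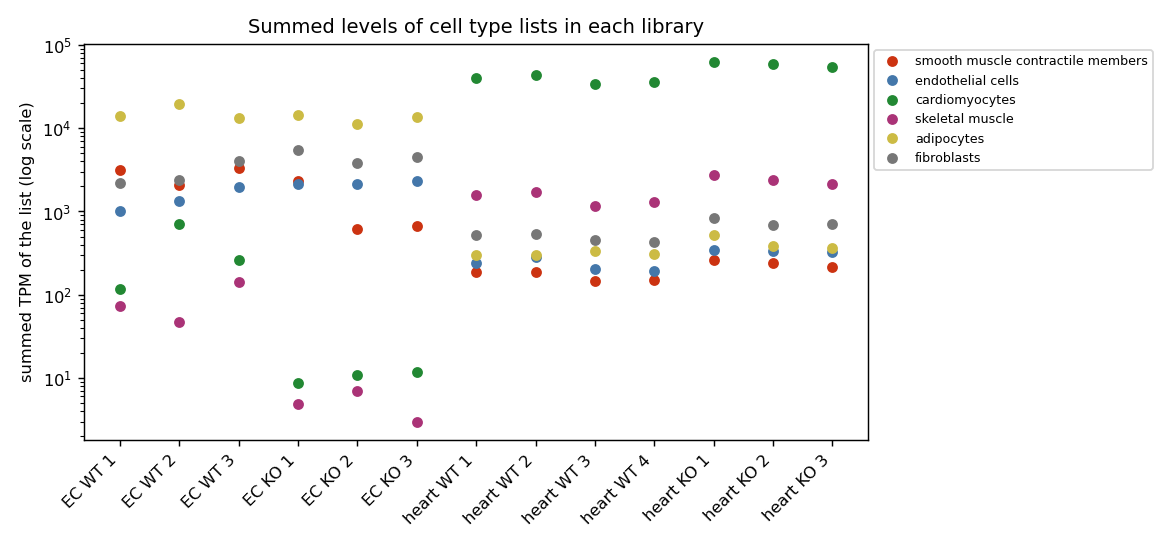
Summed TPM of 6 gene lists in each library on a log axis. The smooth muscle sum (red) is low in EC KO 2 and EC KO 3 only among the aortic libraries, whereas the cardiomyocyte (green) and skeletal muscle (purple) sums are low in all 3 EC KO libraries.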

How the data were processed

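Gene expression was measured by RNA-sequencing (poly-A selected, 100 bp paired-end) in 13 mouse libraries. The authors pseudoaligned the reads with Kallisto and deposited, for each library, estimated counts and TPM per transcript. The submitters' processing notes name kallisto 0.44.0, mm10 and GRCh38.p13, while the methods name a GENCODE annotation of GRCm39; which index was used is not given beyond this. The deposited estimated counts and TPM were summed per gene here, after 115140 of 118489 transcripts (97.2%) were matched by identifier to a GENCODE GRCm39 annotation; 0.755 to 1.01% of counts were left unmatched. The deposited length columns (unit: other) served for length-scaled counts only. Kallisto ignores strand by default, and no strand setting was stated, so reads of overlapping genes on opposite strands may not be separated.

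Rounded summed counts were tested with edgeR 4.0.16 (quasi-likelihood test, filterByExpr with a minimum count of 10, TMM, Benjamini-Hochberg over all genes tested) within each tissue; the difference between tissues and the tissue contrasts were fitted over all 13 libraries. A gene passed at an adjusted p of at most 0.05. Single ratios were compared by an exact permutation test, two-sided. The biological coefficient of variation was 0.241 in the aortic and 0.149 in the heart libraries. Separate libraries are taken as separate mice; where they are not, p-values measure only the spread between samples. No 2 libraries were duplicates. On simulated counts with 200 genes changed, the same fit recovered 199 in the aortic design (15301 genes) and 200 in the heart design (13816 genes). It also called 15 and 13 unchanged genes. The estimated changes had a median size of 1.98 and 1.99 on the log2 scale. Smaller changes, and knockout libraries at 2 levels, were not simulated, so the power for the members is not known from this.

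The members and gene lists were chosen with earlier results of these data known, so no test was run on a list. Every member is reported in every comparison. From each other list the genes that could be named were the 3 of highest mean TPM in the aortic libraries and the 4 of smallest adjusted p among those that passed there; not all are printed, and 2 list genes are not reported here. Alternatives were DESeq2 1.42.0, upper-quartile factors, counts without mitochondrially encoded genes, length-scaled counts, no filter, 1 fit of all libraries, a replicate block and leaving out each library.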

Additional observations from a re-analysis of the deposited data

Results flagged for a closer look

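The effect of the genotype differed between the aortic and the heart libraries in all 10 smooth muscle genes, by a test of the difference itself (edgeR, interaction contrast over 13 libraries, adjusted p of at most 0.05). The aortic effect minus the heart effect, on the log2 scale, was -2.19 for *Myh11*, -1.88 for *Acta2*, -2.35 for *Tagln*, -2.30 for *Cnn1*, -0.917 for *Smtn*, -1.92 for *Myocd*, -2.51 for *Lmod1*, -1.25 for *Mylk*, -1.70 for *Synpo2* and -1.89 for *Actg2*. Of all genes 16.2% were called lower in this contrast. With length-scaled counts 7 of the members passed, and with upper-quartile factors 9. In *Tagln*, *Lmod1* and *Acta2* the heart level was higher in the knockout, and in the other 7 the difference came with a heart change between -0.27 and 0.79. EC KO 2 and EC KO 3, which carry the lowest aortic values, are also the 2 libraries with *Ddx3y* near 0. With *Ddx3y* status as a term the knockout side of the aortic effect rested on EC KO 1 alone, and all 10 estimates stayed below 0. In 10 groups of 4 heart WT values no library stood apart by Dixon's criterion.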

How the results depend on the processing

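In the aortic comparison all 10 estimates stayed below 0 under every alternative run. The 5 calls became 10 with the replicate block, 10 with all 13 libraries in 1 fit, and 0 to 10 on leaving out 1 library. With *Ddx3y* status as a term, and for EC KO 1 alone, EC KO 1 was the only knockout library behind the estimates. Their medians were -0.64 and -0.63. In heart the number of members lower went from 1 to 0 without the filter, with the replicate block and with all libraries in 1 fit (0 to 1 on leaving out 1 library). The number higher went from 3 to 4 with DESeq2 and without the filter. It was 2 with the replicate block, 1 with all libraries in 1 fit and 1 to 4 on leaving out 1 library. The contrast between tissues passed in 7 genes with length-scaled counts, in 9 with upper-quartile factors and in 6 to 10 on leaving out 1 library. With the *Ddx3y* term the knockout side of its aortic effect rested on EC KO 1 alone, and all 10 estimates stayed below 0. The number higher in heart WT than in EC WT was 2 with length-scaled counts and 1 to 2 on leaving out 1 library, the 2 without EC KO 1.

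Directions turned as follows. In heart *Myh11* was -0.047 with the block and -0.130 to 0.135 on leaving out 1 library (below 0 without heart WT 4 and without heart KO 2), *Mylk* was -0.0183 with the block and -0.0159 to 0.126 (below 0 without heart WT 4), and *Actg2* was -0.0039 to 0.416 (below 0 without heart WT 2). Between heart WT and EC WT *Smtn* was 0.85 with length-scaled counts, where it passed (adjusted p = 0.00145), and -0.302 to 0.105 on leaving out 1 library (above 0 without EC WT 1). The ratio of the median member sums, KO over WT, was 0.214 in the aortic libraries (from 0.205 without EC KO 1 to 0.478 without EC KO 2). In heart it was 1.43, 1.25 without *Acta2*, 1.25 without *Acta2* and *Actg2*, 1.13 in CPM, 1.29 to 1.60 on leaving out 1, and 0.916 with TPM rescaled without mitochondrially encoded genes. The causes were not tested.

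Replicate numbers do not mark shared animals in the labels: deviations of same-numbered aortic libraries correlated at 0.223, 0.0784 and 0.0607, and the block result above is a hint only. In heart *Lmod1* did not pass with the block (adjusted p = 0.0661). Low counts limit *Actg2* and *Cnn1* in heart.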
